A study of Mus musculus with 13 samples.

Results

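The genes described here are 7 genes of the phagocyte oxidative burst and of nitric oxide: Cybb, Cyba, Ncf1, Ncf4, Rac2, Nos2 and Sod2. They were taken by name from the 47643 genes in the count table, and all 7 passed the filter on low counts that left 17285 genes for testing. RNA came from isolated brain vasculature of 13 male CD1 mice aged 8 to 10 weeks. The question addressed was how systemic inflammation alters the neurovascular transcriptome and how blocking monoacylglycerol lipase, the enzyme that hydrolyses the endocannabinoid 2-arachidonoylglycerol, alters it further.

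The 4 sham-vehicle mice received no lipopolysaccharide (LPS), and the series text gives PBS in its place. The 5 LPS-vehicle mice received 3 mg/kg of Salmonella enterica typhimurium LPS into the peritoneum at 0, 6 and 24 h, without the inhibitor. The 4 LPS-CPD-4645 mice received the same LPS and, 30 min after each dose by the labels (another interval also stands in the study's text), 10 mg/kg of the monoacylglycerol lipase inhibitor CPD-4645 under the skin in DMSO:Cremophor:Saline. Tissue was taken 28 h after the first LPS dose. The brains were not perfused, so that blood cells remained in the vessels, and no group received CPD-4645 without LPS.

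The phagocyte NADPH oxidase moves electrons from NADPH to oxygen and so makes superoxide. Its membrane core is Cybb, the catalytic subunit, with Cyba, which holds it stable; Ncf1 and Ncf4 are cytosolic subunits that join the core on activation, as does a Rac GTPase. Neutrophils, monocytes, macrophages and microglia carry this enzyme. Nos2, the inducible nitric oxide synthase, makes nitric oxide from arginine, and Sod2 is the mitochondrial enzyme that turns superoxide into hydrogen peroxide.

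On GRCm38 the members are protein-coding genes at X:9435252-9487771 (Cybb, minus strand), 8:122424776-122432930 (Cyba, minus), 5:134220053-134229625 (Ncf1, minus), 15:78244801-78262580 (Ncf4, plus), 15:78559167-78572783 (Rac2, minus), 11:78920787-78960254 (Nos2, plus) and 17:13006846-13040063 (Sod2, plus). Ncf1 shares 408 exon bases with Gtf2ird2 on the opposite strand. How reads there were counted is not known, since the strand setting of the counting is not given in the sources used here. Gtf2ird2 lay between 20.3 and 27.6 CPM (reads of a gene relative to the normalized library size) in all 13 mice. Cyba overlaps the opposite-strand gene Gm20388 with 0 shared exon bases.

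Of the RefSeq promoter windows (GRCm38.p6), 4 belonged to members: Cybb, Cyba, Ncf1 and Sod2. The 250 bases before the start of Cybb and of Ncf1 are shown because both hold the letters of an interferon-stimulated element, searched as GAAA, any 2 bases and GAAA on either strand, which 2.98% of all 32851 promoters hold. Capitals mark the matches. The Cybb window, X:9469325-9469574 on the minus strand, lies inside the longer GENCODE gene, and 34.0% of its bases are G or C:

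Cybb: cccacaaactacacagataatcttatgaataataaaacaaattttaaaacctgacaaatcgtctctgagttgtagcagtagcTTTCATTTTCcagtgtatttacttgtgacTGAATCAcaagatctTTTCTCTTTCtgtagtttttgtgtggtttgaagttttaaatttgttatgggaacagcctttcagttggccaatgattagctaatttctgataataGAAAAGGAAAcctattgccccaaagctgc

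Ncf1: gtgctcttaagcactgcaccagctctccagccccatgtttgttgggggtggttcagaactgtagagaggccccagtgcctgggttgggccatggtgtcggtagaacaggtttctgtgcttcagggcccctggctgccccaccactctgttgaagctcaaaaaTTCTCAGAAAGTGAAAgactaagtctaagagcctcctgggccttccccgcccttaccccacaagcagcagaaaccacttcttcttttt

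In the Cybb window the interferon-stimulated letters occur 3 times, at bases 168 to 159 and 124 to 115 before the start on the opposite strand and at bases 29 to 20 on the gene's strand. An AP-1 match, TGANTCA, lies at bases 139 to 133 and is held by 6.75% of all promoters. The Ncf1 window, 5:134229626-134229875 on the minus strand, is 54.4% G or C. Its interferon-stimulated match at bases 82 to 73 shares bases with a STAT match, TTCNNNGAA, at bases 88 to 80, which 7.02% of promoters hold. The STAT letters were also in the Sod2 window, as was the ETS core bound by PU.1 (GAGGAA, 23.3% of promoters). The letters of NF-kB (GGGA, any base and TTTCC, in 0.356% of promoters) and C/EBP (TTGCNNAA, 9.56%) were in 0 of these 4 windows. A match is a description of letters in this stretch, and the binding of no factor was measured.

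Before the values of the members, the libraries and their cell content are given. Total counts ran from 7813559 in LPS-vehicle mouse 3 to 55133373 in mouse 2 of the same group, and the second shallowest library, LPS-CPD-4645 mouse 1, had 12548404. The summed level of 6 neuron markers was 7440 to 10100 CPM over the 13 libraries, above that of 10 endothelial markers (285 to 595 CPM), although the tissue is labelled neurovasculature. From sham-vehicle to LPS-vehicle the neuron sum went from a range of 8720 to 10000 to one of 7440 to 8230 CPM. The oligodendrocyte sum went from 4450 to 6390 down to 3160 to 4180 CPM. The astrocyte sum went from 1310 to 1650 up to 1720 to 2260 CPM, and the erythrocyte sum from 468 to 957 down to 239 to 460 CPM, none overlapping. In LPS-CPD-4645 these sums were, in that order, 7830 to 10100, 3690 to 4760, 1620 to 2170 and 325 to 705 CPM. The astrocyte marker Gfap alone averaged 95.2 CPM in sham-vehicle and 504 CPM in LPS-vehicle. By the test given below, 2 of 7 astrocyte markers were higher with LPS (median log2 fold change 0.12). Of 6 oligodendrocyte markers 1 was higher and 1 lower. Mitochondrial genes took 3.97% to 12.7% of counts, with medians of 8.91%, 6.51% and 6.22% in sham-vehicle, LPS-vehicle and LPS-CPD-4645. The part of these shifts in the results below was not tested. A gene passed the test at an adjusted p of at most 0.05 (edgeR quasi-likelihood test, Benjamini-Hochberg over all genes tested) together with a change of at least 2-fold. The labels do not say how the mice were housed or processed, and the p-values measure the spread between these mice only.

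All 5 oxidase and Rac genes among the members and Nos2 were higher after LPS, and Sod2 did not pass the test. In LPS-vehicle against sham-vehicle 6 of 7 members passed the test, all higher, where 4.68% of all genes tested passed as higher. The same 6 members had groups that did not overlap, as did 9.68% of all genes in that direction. The median log2 fold change was 2.66 over the members and -0.000654 over all genes. In bulk RNA, more cells of a type and more RNA per cell cannot be told apart.

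Cybb had the largest fold change of the members after LPS. Its level was 1.34, 0.684, 0.279 and 0.296 CPM in the 4 sham-vehicle mice, 11.4, 16.2, 31.3, 9.31 and 5.04 CPM in the 5 LPS-vehicle mice, and 4.98, 5.74, 6.17 and 4.47 CPM in the 4 LPS-CPD-4645 mice. Every LPS-treated mouse was above every sham-vehicle mouse, and the highest value, in LPS-vehicle mouse 3, came from the shallowest library. Cybb rose 20.6-fold with LPS (log2 fold change 4.36 ± 0.51 SE, adjusted p = 6.1e-06). This value was 5.05 without sham-vehicle mouse 1 and 3.92 without LPS-vehicle mouse 3. It fell by 1.41 on the log2 scale in LPS-CPD-4645 against LPS-vehicle (SE 0.42, adjusted p = 0.016), although the 2 groups overlapped through LPS-vehicle mouse 5. Without LPS-vehicle mouse 3 this difference was -0.97 (adjusted p = 0.045), under 2-fold. With limma-voom it was -1.02 (adjusted p = 0.052) and did not pass. With CPD-4645 Cybb stayed higher than in sham-vehicle by 2.95 ± 0.51 on the log2 scale (adjusted p = 0.00019), or 3.64 without sham-vehicle mouse 1.

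Cyba, the partner of Cybb in the membrane, was already at 5.98 ± 0.656 CPM (SD, n = 4) in sham-vehicle. Its level was 5.62, 6.96, 5.70 and 5.63 CPM in sham-vehicle, 18.0, 23.5, 25.7, 14.6 and 24.6 CPM in LPS-vehicle, and 11.7, 12, 10.3 and 9.22 CPM in LPS-CPD-4645. The 3 groups were separate, with the LPS-CPD-4645 mice in between. Cyba rose 3.54-fold with LPS (log2 fold change 1.83 ± 0.17, adjusted p = 5.7e-07). LPS-CPD-4645 against LPS-vehicle gave -0.98 ± 0.17 (adjusted p = 0.00034), which is 1.97-fold and short of the 2-fold threshold. LPS-CPD-4645 against sham-vehicle gave 0.85 ± 0.18 (adjusted p = 0.001), also under 2-fold.

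**Figure D1:**
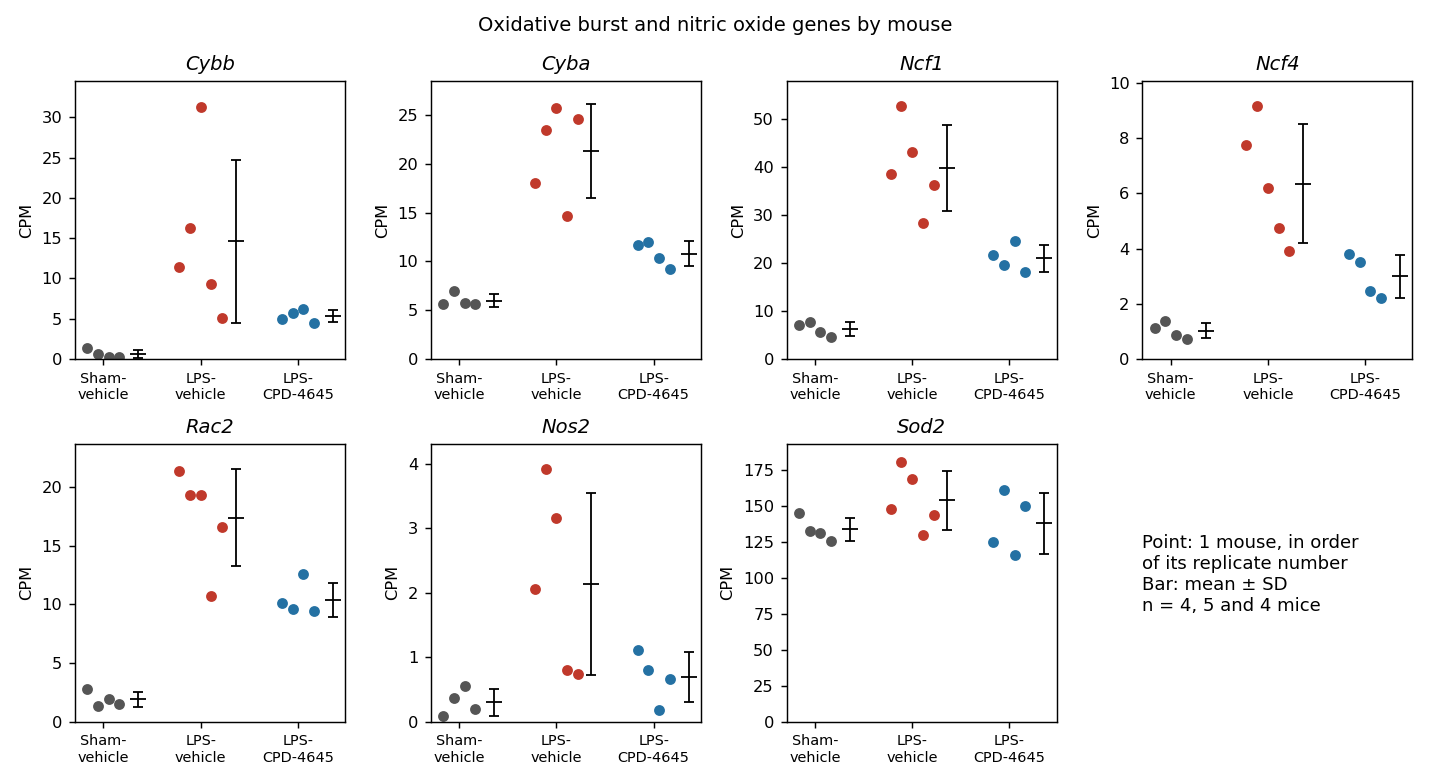
Level of each gene in CPM (linear axis from 0) in 4 sham-vehicle, 5 LPS-vehicle and 4 LPS-CPD-4645 mice, 1 point per mouse, with mean ± SD beside each group. In Cyba, Ncf1 and Ncf4 the 3 groups do not overlap, in Nos2 the LPS-CPD-4645 mice overlap both other groups, and in Sod2 all groups overlap.

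Ncf1, the cytosolic organizer that brings the complex to the membrane, was the most abundant in CPM of the 5 oxidase genes after LPS. It measured 7.16, 7.68, 5.54 and 4.64 CPM in sham-vehicle, 38.6, 52.7, 43.1, 28.4 and 36.3 CPM in LPS-vehicle, and 21.7, 19.6, 24.6 and 18.2 CPM in LPS-CPD-4645. No group overlapped another. Ncf1 rose 6.33-fold with LPS (log2 fold change 2.66 ± 0.18, adjusted p = 2e-08). The difference between LPS-CPD-4645 and LPS-vehicle was -0.92 ± 0.17 (adjusted p = 0.00061), or 1.9-fold, under the threshold. LPS-CPD-4645 remained higher than sham-vehicle by 1.74 ± 0.19 on the log2 scale (adjusted p = 1.6e-06).

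Ncf4, the cytosolic subunit that binds a phosphoinositide of phagosomes, was low throughout. It measured 1.14, 1.37, 0.876 and 0.741 CPM in sham-vehicle, 7.76, 9.17, 6.18, 4.76 and 3.90 CPM in LPS-vehicle, and 3.80, 3.50, 2.48 and 2.20 CPM in LPS-CPD-4645. The groups did not overlap, but the lowest LPS-vehicle value (mouse 5, 3.90 CPM) nearly met the highest with CPD-4645 (mouse 1, 3.80 CPM). Ncf4 rose 6.11-fold with LPS (log2 fold change 2.61 ± 0.30, adjusted p = 6.1e-06) and fell 2.14-fold from there with CPD-4645 (-1.10 ± 0.28, adjusted p = 0.0064). That fall was -0.92 without LPS-vehicle mouse 2 and -0.96 without mouse 4 of LPS-CPD-4645, both under 2-fold. LPS-CPD-4645 was 2.85-fold higher than sham-vehicle (log2 fold change 1.51 ± 0.31, adjusted p = 0.00096).

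Rac2 is the Rac GTPase of blood cells, and Rac1 its widely expressed relative. Rac2 measured 2.82, 1.33, 1.91 and 1.53 CPM in sham-vehicle, 21.4, 19.3, 19.3, 10.7 and 16.6 CPM in LPS-vehicle, and 10.1, 9.58, 12.6 and 9.42 CPM in LPS-CPD-4645. LPS-CPD-4645 overlapped LPS-vehicle through LPS-vehicle mouse 4, and both stood above sham-vehicle. Rac2 rose 8.99-fold with LPS (log2 fold change 3.17 ± 0.24, adjusted p = 5.5e-08), and LPS-CPD-4645 was still 5.39-fold above sham-vehicle (2.43 ± 0.24, adjusted p = 8.3e-07). Between LPS-CPD-4645 and LPS-vehicle the log2 fold change was -0.74 ± 0.21 (adjusted p = 0.013), or 1.67-fold, under the threshold. Rac1 measured 416 ± 16.1 CPM in sham-vehicle and 413 ± 32.3 CPM in LPS-vehicle (log2 fold change -0.01, adjusted p = 0.94). The log2 ratio of Rac2 to Rac1 within a mouse differed by 3.18 between LPS-vehicle and sham-vehicle (two-sided p = 0.0159 by exact permutation, which is the lower limit for groups of 5 and 4, and 0.0544 once adjusted over 12 such tests), and it did not pass the correction.

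Nos2 was the rarest of the members. Its level was 0.0856, 0.362, 0.558 and 0.198 CPM in sham-vehicle, from 3 to 14 reads a library. LPS-vehicle mice had 2.06, 3.91, 3.15, 0.794 and 0.745 CPM (25 to 218 reads), and LPS-CPD-4645 mice had 1.11, 0.804, 0.188 and 0.667 CPM (5 to 23 reads). LPS-vehicle mice 1, 2 and 3 were well above mice 4 and 5, which lay among the LPS-CPD-4645 values. Nos2 rose 7.02-fold with LPS (log2 fold change 2.81 ± 0.65, adjusted p = 0.0048). The fall from LPS-vehicle to LPS-CPD-4645 just passed (-1.64 ± 0.61, adjusted p = 0.048). It no longer passed with limma-voom (adjusted p = 0.097) or without any 1 of 8 of the 13 mice: sham-vehicle 2 or 4, LPS-vehicle 1, 2 or 3, or LPS-CPD-4645 2, 3 or 4 (adjusted p 0.051 to 0.15, log2 fold change between -1.25 and -1.76). LPS-CPD-4645 against sham-vehicle gave 1.17 ± 0.69 (adjusted p = 0.19), with overlapping groups, and a difference was not detected.

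Sod2 had the highest CPM of the members in every group and small differences between groups. It measured 145, 133, 131 and 126 CPM in sham-vehicle, 148, 181, 169, 130 and 144 CPM in LPS-vehicle, and 125, 161, 116 and 150 CPM in LPS-CPD-4645. All groups overlapped. The log2 fold change was 0.21 ± 0.11 in LPS-vehicle against sham-vehicle (adjusted p = 0.19), -0.16 ± 0.11 in LPS-CPD-4645 against LPS-vehicle (adjusted p = 0.27) and 0.05 ± 0.11 in LPS-CPD-4645 against sham-vehicle (adjusted p = 0.77). These values were small beside the 1.83 of Cyba, the smallest LPS response among the 6 that passed.

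**Figure D2:**
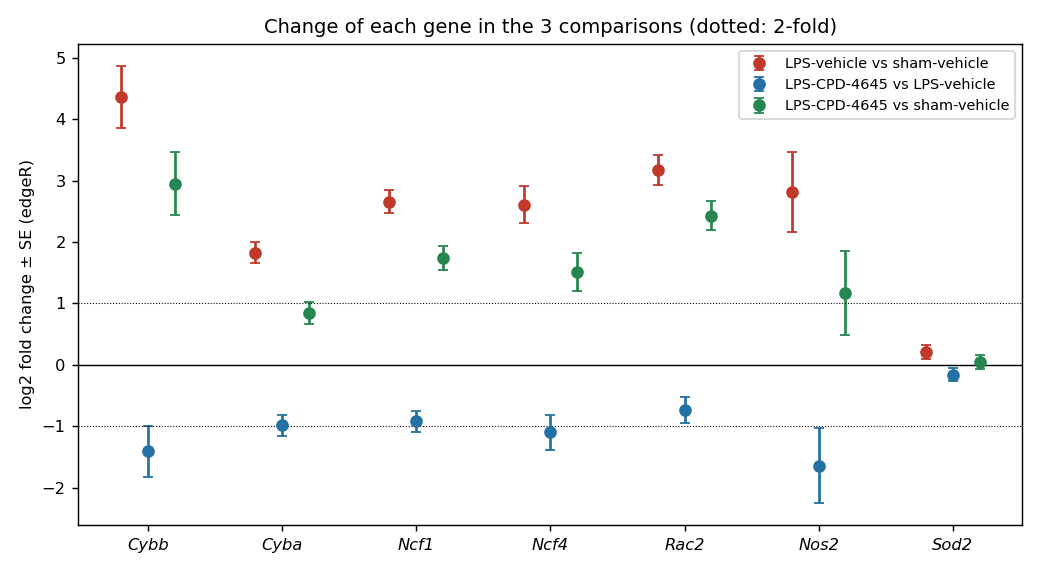
Log2 fold change ± SE of each gene from the edgeR fit in LPS-vehicle against sham-vehicle, LPS-CPD-4645 against LPS-vehicle and LPS-CPD-4645 against sham-vehicle, with dotted lines at 2-fold. Cybb has the highest LPS value (4.36) and Sod2 the lowest (0.21), and the values for CPD-4645 against LPS-vehicle run from -1.64 (Nos2) to -0.16 (Sod2).

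Counted over the members, CPD-4645 with LPS gave lower values than LPS alone in 7 of 7, of which 3 (Cybb, Ncf4 and Nos2) passed the test, where 4.19% of all genes passed as lower. A further 3 (Cyba, Ncf1 and Rac2) had an adjusted p of at most 0.05 without reaching 2-fold, so that 6 met the adjusted p at any fold, as did 16.4% of all genes. Groups were non-overlapping and lower for 3 members (Cyba, Ncf1 and Ncf4), against 12% of all genes. The median log2 fold change was -0.98 over the members and -0.0232 over all genes. The count of 3 became 1 with limma-voom, 1 when LPS-vehicle mouse 2 or 3 or mouse 4 of LPS-CPD-4645 was left out, and 5 without LPS-vehicle mouse 4.

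Against sham-vehicle, 4 members (Cybb, Ncf1, Ncf4 and Rac2) were still higher in LPS-CPD-4645 by the test, where 6.11% of all genes were. With Cyba, 5 met the adjusted p at any fold (19.5% of all genes) and had non-overlapping groups (18.7%). The median log2 fold change was 1.51 over the members and -0.0145 over all genes. This comparison uses the same sham-vehicle mice as that of LPS alone, and the comparison of the 2 LPS groups uses the same LPS-vehicle mice, so the 3 sets of values are not independent.

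Levels between genes were compared per kilobase of exon. The length counts all annotated exon bases of a gene, 10008 for Sod2, 5808 for Cybb and 1039 for Cyba. The order below depends on these lengths, whichever transcripts the tissue makes. In sham-vehicle the order was Sod2 (13.4 ± 0.799 CPM per kb), Cyba (5.75 ± 0.631), Ncf1 (1.71 ± 0.385), Rac2 (0.612 ± 0.214), Ncf4 (0.511 ± 0.138), Cybb (0.112 ± 0.0856) and Nos2 (0.0682 ± 0.0466). Rac2 and Ncf4 overlapped between mice, as did Cybb and Nos2. In LPS-vehicle Cyba came first at 20.5 ± 4.59 CPM per kb, then Sod2 (15.4 ± 2.03), Ncf1 (10.9 ± 2.44), Rac2 (5.62 ± 1.34), Ncf4 (3.15 ± 1.06), Cybb (2.52 ± 1.74) and Nos2 (0.483 ± 0.319). Of these neighbours, the pair Ncf1 and Rac2 alone did not overlap. In LPS-CPD-4645 Sod2 was first again (13.8 ± 2.10 CPM per kb) before Cyba (10.4 ± 1.23), Ncf1 (5.73 ± 0.762), Rac2 (3.36 ± 0.472), Ncf4 (1.48 ± 0.382), Cybb (0.920 ± 0.131) and Nos2 (0.157 ± 0.0867), and no neighbours overlapped. The catalytic subunit Cybb thus stayed below its stabilizing partner Cyba in every group. Their log2 CPM ratio was -3.31 ± 0.94 for sham-vehicle, -0.77 ± 0.93 after LPS alone and -1.01 ± 0.20 with CPD-4645 (mean ± SD over mice, and none of the 3 comparisons of it passed the correction).

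**Figure D3:**
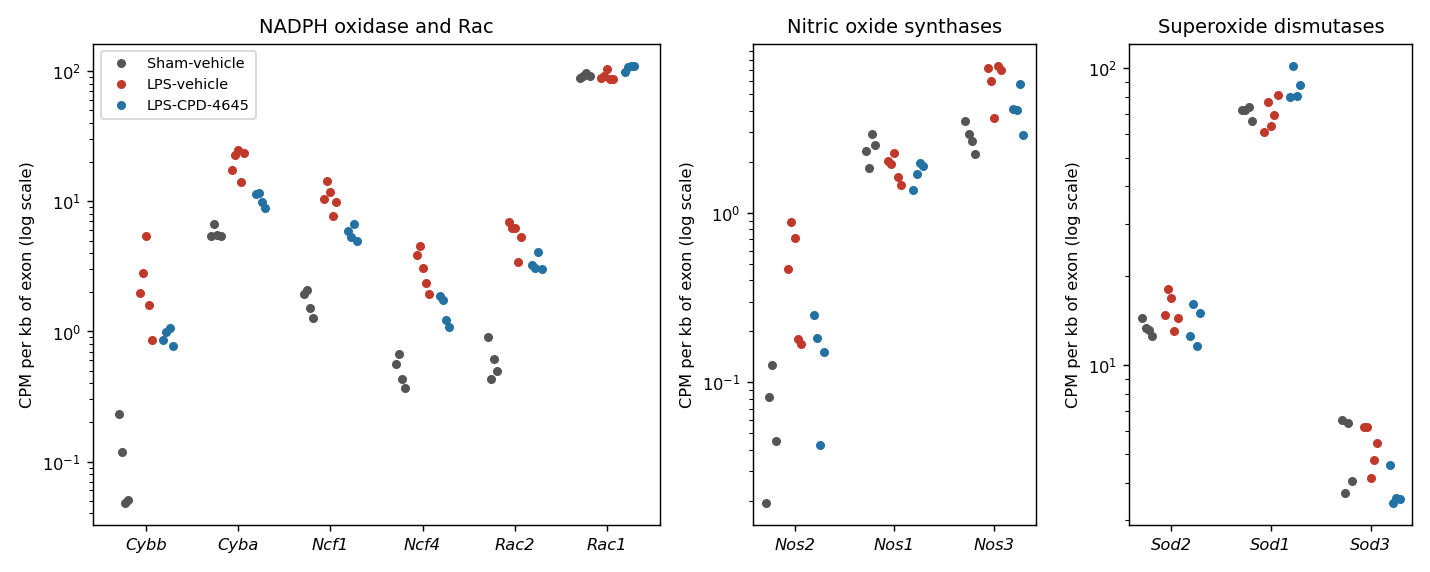
Level of the oxidase and Rac genes, the 3 nitric oxide synthases and the 3 superoxide dismutases in CPM per kilobase of exon (log axis), 1 point per mouse by group. Rac1 lies above Rac2, Nos1 and Nos3 above Nos2, and Sod1 above Sod2 in every mouse.

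The nitric oxide synthases differed in level and in response. Nos3, the endothelial enzyme, was at 2.83 ± 0.514 CPM per kb in sham-vehicle and Nos1, the neuronal enzyme, at 2.40 ± 0.457, both far above Nos2. Nos3 rose 2.22-fold with LPS (log2 fold change 1.15 ± 0.21, adjusted p = 0.00058). Of the 10 endothelial markers 2 were higher with LPS, Cdh5 (2.2-fold) and Esam (2.23-fold). Another 2 were lower, Tek (2.8-fold) and Slco1a4 (2.17-fold). Of all 17285 genes tested, 4.68% passed as higher and 172 genes as lower. The summed level of the 10 markers was 285 to 453 CPM in sham-vehicle, 316 to 595 CPM after LPS alone and 319 to 460 CPM with CPD-4645. In LPS-CPD-4645 against LPS-vehicle 1 of the 10, Tie1, passed as lower (4.19% of all genes did). At any fold 5 met the adjusted p as lower (16.4% of all genes). The part of endothelial content in the values of Nos3 was not tested. Nos3 gave -0.58 in LPS-CPD-4645 against LPS-vehicle (adjusted p = 0.038, under 2-fold), and Nos1 gave -0.37 with LPS (adjusted p = 0.096). Even in LPS-vehicle, Nos2 at 0.483 ± 0.319 CPM per kb was below Nos1 (1.86 ± 0.323) and Nos3 (6.23 ± 1.55). The log2 ratio of Nos2 to Nos3 differed by 1.35 between LPS-vehicle and sham-vehicle (exact permutation test, two-sided, p = 0.175, adjusted p = 0.233).

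Among the superoxide dismutases, Sod1, the cytosolic enzyme, measured 71.3 ± 3.45 CPM per kb in sham-vehicle and 70.6 ± 8.64 in LPS-vehicle, and Sod3, the secreted enzyme, 5.18 ± 1.49 and 5.36 ± 0.876. In LPS-CPD-4645 against LPS-vehicle the log2 fold change was 0.31 for Sod1 (adjusted p = 0.019) and -0.51 for Sod3 (adjusted p = 0.035), both under 2-fold. The log2 ratio of Sod2 to Sod1 was -0.86 ± 0.25 after LPS alone and -1.34 ± 0.10 with CPD-4645 (SD over mice), with no overlap. The difference of -0.48 had the smallest exact permutation p the design allows (0.0159, two-sided) and an adjusted p of 0.0544.

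The other genes of the oxidase were read from a list of 20 partners, of which 15 were tested. After LPS 4 were higher and 0 lower by the edgeR test, where 4.68% of all genes passed as higher. At an unadjusted p under 0.05 in edgeR 2 were lower, and limma-voom called 0 and DESeq2 1 lower. The median log2 fold change was 0.29 over these 15 and -0.000654 over all genes. Among them Vav1, a blood cell exchange factor for Rac, rose 4.61-fold (adjusted p = 5.5e-06), Arhgdib, which holds Rac-type GTPases inactive in blood cells, 2.65-fold (adjusted p = 0.00011) and Hvcn1, the proton channel that balances the charge moved by the oxidase, 2.35-fold (adjusted p = 0.0031). Cybc1, the chaperone of the membrane core, gave 0.29 (adjusted p = 0.027), under 2-fold.

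In LPS-CPD-4645 against LPS-vehicle 1 of the 15 partners was lower and 2 were higher, with a median of 0.0, where 4.19% of all genes passed as lower and 1.7% as higher. Arhgdib fell 2.25-fold from 25.1 ± 6.46 to 11.1 ± 3.37 CPM (adjusted p = 0.00056), and partners passing as lower numbered 0 without mouse 3 of LPS-CPD-4645 and 2 without its mouse 2 or without mouse 4 or 5 of LPS-vehicle. Vav1 gave -0.32 (adjusted p = 0.32) and Hvcn1 0.44 (adjusted p = 0.2). Duox2, a dual oxidase that makes hydrogen peroxide, and Duoxa1, a maturation factor of that family, were higher at very few reads: 11 to 21 for Duox2 and 3 to 21 for Duoxa1 in LPS-CPD-4645, against 2 to 10 and 0 to 4 in LPS-vehicle. In 9 of the 13 fits with 1 mouse left out, 1 partner passed as higher. Against sham-vehicle, Vav1 was 3.7-fold (adjusted p = 2.1e-05), Hvcn1 3.19-fold (adjusted p = 0.00015) and Duox2 3.84-fold (adjusted p = 0.034) higher.

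Of 23 listed genes of nitric oxide synthesis, 21 were in the table, 2 names being older symbols of listed genes, and 20 were tested. After LPS 1 was higher, Nos3, and 0 lower (5 lower at an unadjusted p under 0.05, 0 by limma-voom and DESeq2), with a median of -0.03. That 1 of 20 is near the 4.68% of all genes that passed as higher. The count was 2 by limma-voom and 2 when sham-vehicle mouse 1 or LPS-vehicle mouse 1 or 3 was left out, and 0 in a test against 2-fold. In LPS-CPD-4645 against LPS-vehicle 0 passed either way in edgeR, limma-voom or DESeq2, with 5 higher and 4 lower at an unadjusted p under 0.05 in edgeR. Of all genes 1.7% passed as higher and 4.19% as lower in that edgeR test.

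Of 27 genes that remove superoxide and peroxide, all were tested and 0 passed after LPS in edgeR, limma-voom and DESeq2 (4 higher and 1 lower at an unadjusted p under 0.05 in edgeR), but 1 passed as higher with a replicate block or when mouse 2 or 3 of sham-vehicle or mouse 4 or 5 of LPS-vehicle was left out. Over all genes 4.68% passed as higher in the edgeR test of that comparison. The median log2 fold change was 0.01 over this list and -0.000654 over all genes. In LPS-CPD-4645 against LPS-vehicle 0 passed by these 3 tools, with 6 higher and 6 lower at an unadjusted p under 0.05, and the median was 0.04. By the edgeR test 1.7% of all genes passed as higher there and 4.19% as lower. Hmox1, the inducible heme oxygenase, gave 0.99 with LPS (adjusted p = 0.0021, just under 2-fold). It was 2.06-fold higher in LPS-CPD-4645 than in sham-vehicle (adjusted p = 0.00096). Hmox1 was the 1 gene of the list to pass there, where 6.11% of all genes passed as higher. When sham-vehicle mouse 1 or 4 or mouse 2 or 3 of LPS-CPD-4645 was left out, 0 genes of the list passed as higher in that comparison.

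**Figure D4:**
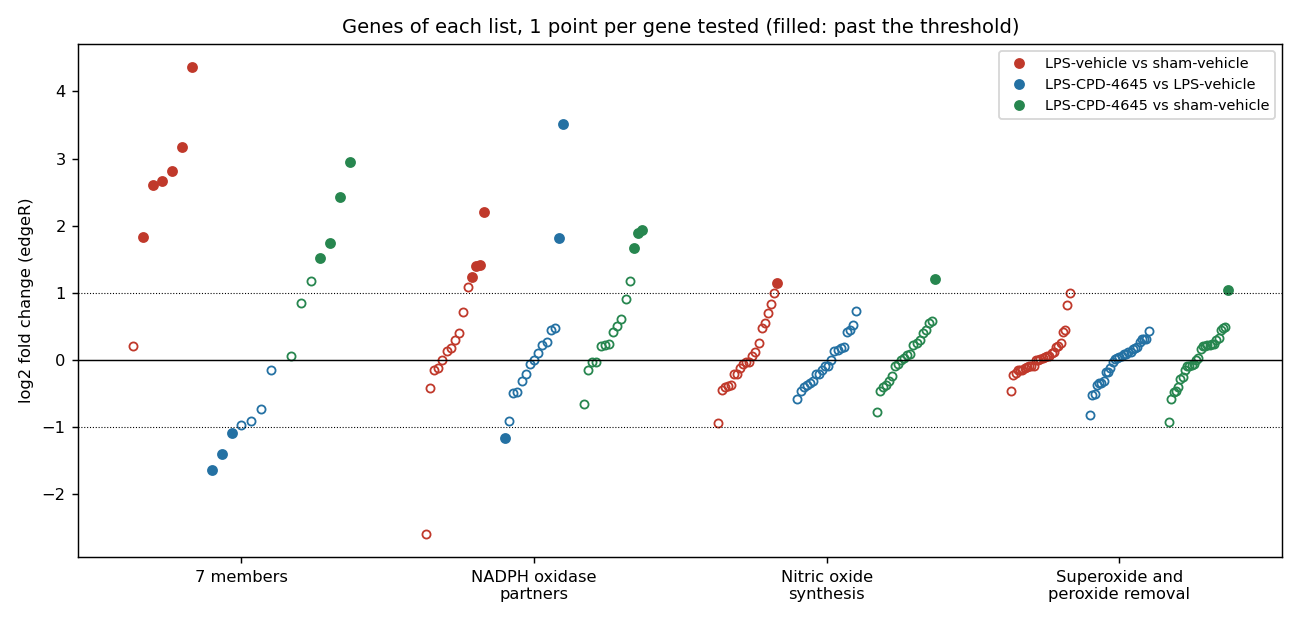
Log2 fold change (edgeR) of every tested gene of the 7 members and of the 3 pathway lists in the 3 comparisons, 1 point per gene, filled where the gene passed the test, with dotted lines at 2-fold. After LPS 6 of 7 members, 4 of 15 partners, 1 of 20 nitric oxide genes and 0 of 27 removal genes were past the threshold as higher. Of all genes tested, 4.68% were.

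Markers of the cells that carry the oxidase moved in the same mice. The summed level of 10 neutrophil markers was 3.65 to 11.2 CPM in sham-vehicle, 72.6 to 290 CPM in LPS-vehicle and 7.94 to 28.5 CPM in LPS-CPD-4645. Of the 9 neutrophil markers tested, 8 were higher with LPS, 9 were lower in LPS-CPD-4645 than in LPS-vehicle, and 3 were higher and 1 lower in LPS-CPD-4645 than in sham-vehicle, where limma-voom called 0 higher. S100a8 and S100a9, calcium-binding proteins abundant in neutrophils, averaged 0.893 and 1.23 CPM in sham-vehicle and 25 and 49.4 CPM in LPS-vehicle, while Ly6g, a defining surface marker of mouse neutrophils, averaged 0.159 CPM in LPS-vehicle and was too low to test. The sum of 10 monocyte and macrophage markers was 6.32 to 7.88, 21.3 to 44.3 and 7.72 to 13.9 CPM in the same order of groups, with 7 of 9 tested markers higher after LPS and 4 lower with CPD-4645. The sum of 10 microglia markers was lower after LPS, at 214 to 283 CPM in sham-vehicle, 127 to 232 CPM in LPS-vehicle and 128 to 154 CPM in LPS-CPD-4645, with 6 of 10 markers lower after LPS. From LPS-vehicle to LPS-CPD-4645, 8 of these 10 had a log2 fold change below 0 (median -0.51), 0 passed as lower, 2 of them meeting the adjusted p under 2-fold, and Siglech passed as higher (3.21-fold, adjusted p = 0.00029). Lymphocyte markers summed to at most 1.49 CPM in any mouse. Of the T cell receptor complex genes, Cd3e and Cd3g were at 0 in every LPS-CPD-4645 library and Cd3d had 0 to 6 reads there. In LPS-vehicle Cd3e had 0 to 7 reads, Cd3g 0 to 1 and Cd3d 0 to 4. In sham-vehicle they had 4 to 8, 0 to 1 and 0 to 1.

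Mouse by mouse, LPS-vehicle mouse 2 had both the highest neutrophil sum (290 CPM) and the highest Ncf1, Ncf4, Nos2 and Sod2 of its group. Cybb and Cyba were highest in LPS-vehicle mouse 3, whose neutrophil sum was 115 CPM. In LPS-CPD-4645, mouse 3 had the lowest neutrophil sum (7.94 CPM) and the lowest Nos2 and Sod2, but the highest Cybb, Ncf1 and Rac2. Its neutrophil sum lay within the sham-vehicle range (3.65 to 11.2 CPM), while its Ncf1 (24.6 CPM) was above all sham-vehicle values (4.64 to 7.68 CPM). The part of cell content in the differences of the members was not tested.

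**Figure D5:**
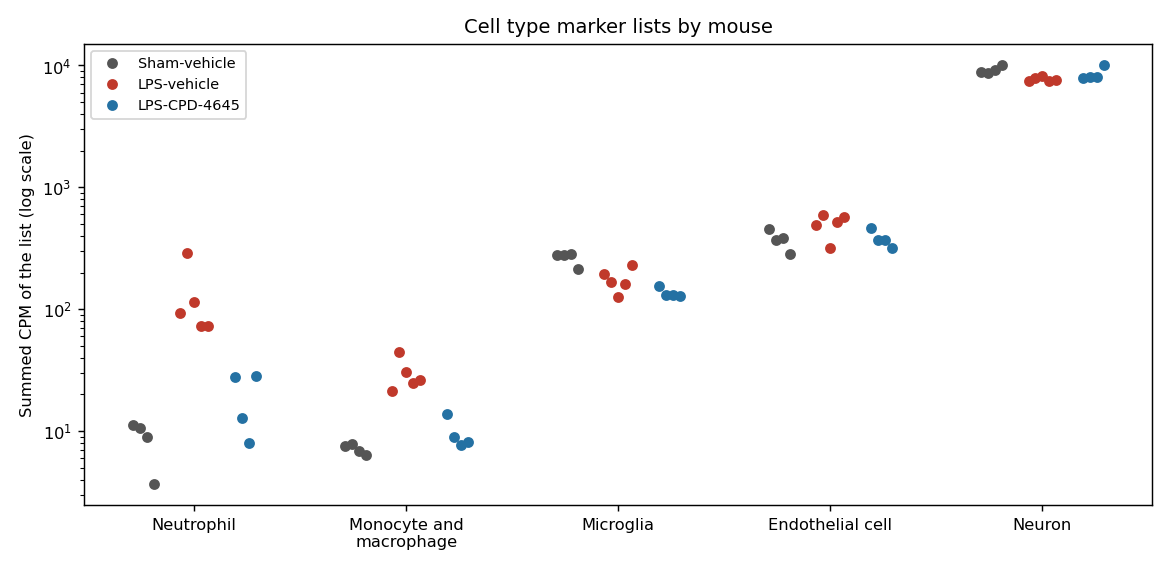
Summed CPM (log axis) of 5 cell type marker lists, 1 point per mouse by group. Neutrophil sums separate LPS-vehicle (72.6 to 290 CPM) from both other groups, and the LPS-CPD-4645 sums (7.94 to 28.5 CPM) overlap those of sham-vehicle (3.65 to 11.2 CPM).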

How the data were processed

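Stranded mRNA libraries, 1 per mouse, were sequenced, and the authors aligned the reads with STAR 2.5.2a to GRCm38. The deposited values are whole-number counts per gene with no normalization. Total counts were 7813559 to 55133373, and low counts such as those of Nos2 limit precision. Groups came from the sample labels. Of 47643 identifiers, 47224 matched GENCODE M21, which gave symbols, positions and exon lengths.

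Counts were fitted in edgeR 4.0.16 (R 4.3.3): filterByExpr (minimum count 10, minimum total 15), TMM factors of 0.908 to 1.08, and a quasi-likelihood model of 3 groups without covariates. CPM used the normalized library sizes, and log2 CPM a prior count of 2. Ratios of 2 genes within a mouse were compared by exact permutation tests. Alternatives were limma-voom (limma 3.58.1), DESeq2 1.42.0 and its size factors, other filters, a test against 2-fold (glmTreat), only the groups compared, a replicate block, and each mouse left out. Replicate libraries differed by more than sampling noise (chi-square 9.82 to 61.1 per gene over 22 pairs).

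The members, pathway lists, marker lists and motifs were chosen with earlier results of these data known. Genes named were the members, every pathway list gene past the threshold in any comparison, Cybc1, Rac1, Nos1, Nos3, Sod1 and Sod3, defining markers at 0 or moving with a member, and, for each member, the 3 tested genes of at least 1 CPM on average closest in pattern. A few gene-level results are not reported here.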

Additional observations from a re-analysis of the deposited data

Results flagged for a closer look

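In groups of 4 or 5 mice, a sample counted as far from the others when its gap to the nearest one was a large share of the range of the group (Dixon's 95% critical value). Of 42 groups over 14 genes 3 met this, and chance flags about 1 in 20 groups. Cyba was at 6.96 CPM in sham-vehicle mouse 2, with the other 3 mice at 5.62 to 5.70 CPM. Rac1 was at 469 CPM in LPS-vehicle mouse 3, the shallowest library, with the others at 390 to 410 CPM. Sod3 was at 17.2 CPM in LPS-CPD-4645 mouse 1, the second shallowest library, with the others at 12.8 to 13.4 CPM.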

How the results depend on the processing

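The members' rise with LPS was the firmest result: 6 members passed without any 1 mouse and 5 in the test against 2-fold, where Nos2 gave an adjusted p of 0.066. The 4 members higher in LPS-CPD-4645 than in sham-vehicle were also 4 without any 1 mouse, and 3 in the test against 2-fold (Ncf4, adjusted p = 0.3). The 3 members lower in LPS-CPD-4645 than in LPS-vehicle became 1 with limma-voom, 0 in the test against 2-fold, 1 without the 2 shallowest libraries (chosen after seeing the data) and 1 to 5 with a mouse left out. Cybb gave -1.02 with limma-voom (adjusted p = 0.052) and -0.94 without the 2 shallowest libraries (adjusted p = 0.085). Cyba reached 2-fold (-1.0 to -1.09) when mouse 1 or 4 of LPS-vehicle or mouse 1 or 2 of LPS-CPD-4645 was left out, and Ncf1 (-1.03 and -1.0) when mouse 4 of the former or mouse 3 of the latter was. Sod2 in LPS-CPD-4645 against sham-vehicle was -0.04 to 0.13 with a mouse left out, below 0 when that was LPS-CPD-4645 mouse 2. Of 153 alternative values per comparison, 152, 128 and 151 kept their direction and side of the threshold in the order LPS-vehicle against sham-vehicle, LPS-CPD-4645 against LPS-vehicle, LPS-CPD-4645 against sham-vehicle.

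Over all genes, the 809 higher and 172 lower with LPS became 403 and 36 in the test against 2-fold, the 294 and 725 for LPS-CPD-4645 against LPS-vehicle 30 and 35, and the 1056 and 861 for LPS-CPD-4645 against sham-vehicle 404 and 157. Keeping genes that averaged 50 counts or more, a filter that removes Nos2, 113 were lower with LPS and 123 higher in LPS-CPD-4645 than in LPS-vehicle. DESeq2 size factors moved the median of all genes by under 0.1. Equal replicate numbers did not mark pairs of mice: the correlation of deviations was -0.0346 to 0.114 over 12 same-numbered pairs, and 1 was above 0.1. With a replicate block, 6, 2 and 4 members passed in the 3 comparisons, and Nos2 in LPS-CPD-4645 against LPS-vehicle gave -1.67 (adjusted p = 0.058). In the lists, the 4 oxidase partners higher with LPS became 1 in the test against 2-fold, and the 2 higher in LPS-CPD-4645 than in LPS-vehicle (Duox2 and Duoxa1) became 0 or 1 in 6 of 9 alternatives other than leaving out 1 mouse.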

Other observations

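For each member, the tested genes closest in pattern over the 13 mice were found by the root mean square difference of standardized log2 CPM among 14813 genes (0 would be the same pattern). This is a description over 13 mice that fall into 3 groups and share those groups' differences. Closest to Cybb were Bcl3 (0.231), an NF-kB regulator, Tnfaip2 (0.24) and Saa3 (0.241), an acute phase gene that measured 7.77 ± 5.37, 491 ± 346 and 253 ± 81.2 CPM (SD, n = 4, 5 and 4) in sham-vehicle, LPS-vehicle and LPS-CPD-4645. Closest to Cyba were C3 (0.214), the central complement component, Apod (0.25) and Matn1 (0.26), and to Ncf1 C4b (0.178), another complement component, Hp (0.183), which encodes haptoglobin, and Upp1 (0.193). Ncf4 was nearest to Pik3r5 (0.227), Ptges (0.228), a prostaglandin E synthase, and Rhoc (0.233). Rac2 was nearest to Cd14 (0.173), the co-receptor for LPS, at 2.94 ± 1.35, 80.0 ± 31.8 and 36.2 ± 3.89 CPM, then to Ctla2b (0.181) and Aoah (0.187), the enzyme that deacylates LPS.

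Nos2 had no gene as near: Ikzf1, Cflar and Prrx2 lay at 0.389, 0.394 and 0.415. Sod2 was farther still from any gene, with Bcas3 (0.512), 9630010A21Rik (0.538) and Myh7b (0.542). Standardizing gives every gene the same spread over the mice. Differences between mice of a group therefore weigh more in Sod2, whose groups overlapped, and in Nos2, with 3 to 14 reads in sham-vehicle. Their larger distances are not shown to be a pattern of their own. Among the members the nearest pairs were Ncf1 with Rac2 (0.251), Ncf1 with Ncf4 (0.259) and Cybb with Ncf1 (0.29), while Sod2 lay 0.803 to 1.04 from every other member.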
